A study of Homo sapiens with 4 samples.

Results

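The 37 genes described here encode the enzymes that feed pyruvate into the tricarboxylic acid (TCA) cycle, the enzymes of the cycle, and those that oxidise fatty acids. They were taken by symbol from a list, 20 for pyruvate entry and the TCA cycle and 17 for fatty acid oxidation. All 37 stood among the 23228 gene symbols of the count tables. Counted with the cycle are ACO1, IDH1 and MDH1, whose enzymes act outside mitochondria. The cells were U87 MG, an established human glioblastoma line, grown in DMEM with serum. One group received a control siRNA and the other siRNA against PELP1, a scaffold protein of nuclear receptor and chromatin complexes, with 2 libraries a group and total RNA collected at 72 hours. The comparison addresses how loss of PELP1 alters the transcriptome of these cells. The labels name neither the siRNA sequences nor separate cultures, so p-values measure only the spread between these libraries, which may be technical.

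Pyruvate made by glycolysis enters mitochondria and is turned into acetyl-CoA by the pyruvate dehydrogenase complex or into oxaloacetate by pyruvate carboxylase. The TCA cycle joins acetyl-CoA to oxaloacetate and oxidises the product stepwise, passing electrons to the respiratory chain and supplying precursors for lipids and amino acids. Fatty acids reach the same acetyl-CoA pool after the carnitine shuttle brings them into mitochondria, where a repeated set of dehydrogenase, hydratase and thiolase steps shortens the chain. Glioblastoma cells are known for strong glycolysis and keep a working cycle, and the isocitrate dehydrogenases IDH1 and IDH2 are well known from gliomas.

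Reads assigned to genes numbered 18670162 to 22858988 per library, and the 37 genes took 0.415 and 0.423% of them with control siRNA and 0.470 and 0.486% with PELP1 siRNA. PELP1 itself stood at 74.0 and 78.1 CPM (counts scaled to a common library size) with control siRNA and at 15.2 and 17.7 CPM with PELP1 siRNA. The change was -2.21 on the log2 scale (SE 0.097, adjusted p = 8.32e-14). Replicates differed beyond counting noise: chi-square divided by the number of genes was 2.03 between the control libraries and 6.80 between those with PELP1 siRNA. Of 7 mesenchymal markers all were expressed and 5 fell, their summed level being 17842 to 17881 CPM with control siRNA and 14287 to 14798 CPM with PELP1 siRNA. Of 7 astrocyte markers 2 rose, AQP4 and ALDH1L1 had 0 counts in every library and GFAP stood at 1.37 and 1.53 CPM in the group means. The 6 immune markers summed to 440 to 448 CPM with control siRNA and 402 to 441 CPM with PELP1 siRNA, nearly all of it CD68 (424 and 404 CPM in the group means) and CSF1R (20.7 and 17.9 CPM). Neither passed the threshold, while PTPRC, the pan-leukocyte marker, had 1 to 2 counts a library, and CD3E and AIF1 had 0. The neuronal marker SNAP25 and the endothelial marker KDR fell, and the epithelial marker EPCAM rose from 13 and 20 counts to 33 and 29. The other tested markers of these lists did not pass the threshold and went both ways. Their log2 fold changes were 0.28 (SYT1), -0.20 (GAD1), 0.41 (TEK), 0.33 (VWF), -0.32 (PECAM1) and -0.41 (KRT18). The part of these marker changes in the results on the enzymes was not tested.

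Small rises were called in both branches, which were not tested against each other. Of the 20 genes of pyruvate entry and the cycle, 9 rose, 0 fell and 11 did not pass the threshold, an adjusted p under 0.05 in edgeR's quasi-likelihood test over all 13234 genes tested. Of the 17 genes of fatty acid oxidation, 5 rose, 2 fell and 10 did not pass. The shares that rose were thus 45% and 29.4%, and those that fell 0% and 11.8%. Over all genes tested 12.9% rose (1712) and 15% fell (1980), the latter near the share of falls in oxidation. Scaling by total counts alone changed this split to 2272 higher and 1597 lower, so that 41.3% of the called genes were lower in place of 53.6%. The median log2 fold change was 0.16 for pyruvate entry and the cycle, 0.11 for fatty acid oxidation and 0.00088 for all genes. No member changed by more than 1.5-fold, and the members' log2 fold changes ran from -0.30 to 0.58. Both PELP1 siRNA libraries lay above both control libraries for 23 of the 37 genes, against 32% of all genes, and below them for 4, against 32.3%.

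Calls were lost when either control library was left out and gained when either PELP1 siRNA library was. The spread in such a fit comes from the group that keeps both libraries. Replicates differed more with PELP1 siRNA (chi-square per gene 6.80) than with control siRNA (2.03), and the part of this in the calls was not tested. Without control library 1, 3 of the 16 called members kept their call (PC, IDH1 and HADHA), and the other 13 had adjusted p from 0.0661 to 0.456. Without control library 2, 8 kept it and 8 had adjusted p from 0.0650 to 0.467. Leaving out either PELP1 siRNA library kept all 16 and added 10 (without library 1) or 6 (without library 2). In each of these 4 fits all 16 kept their direction, where a group left with 1 library takes its spread from the other.

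**Figure D1:**
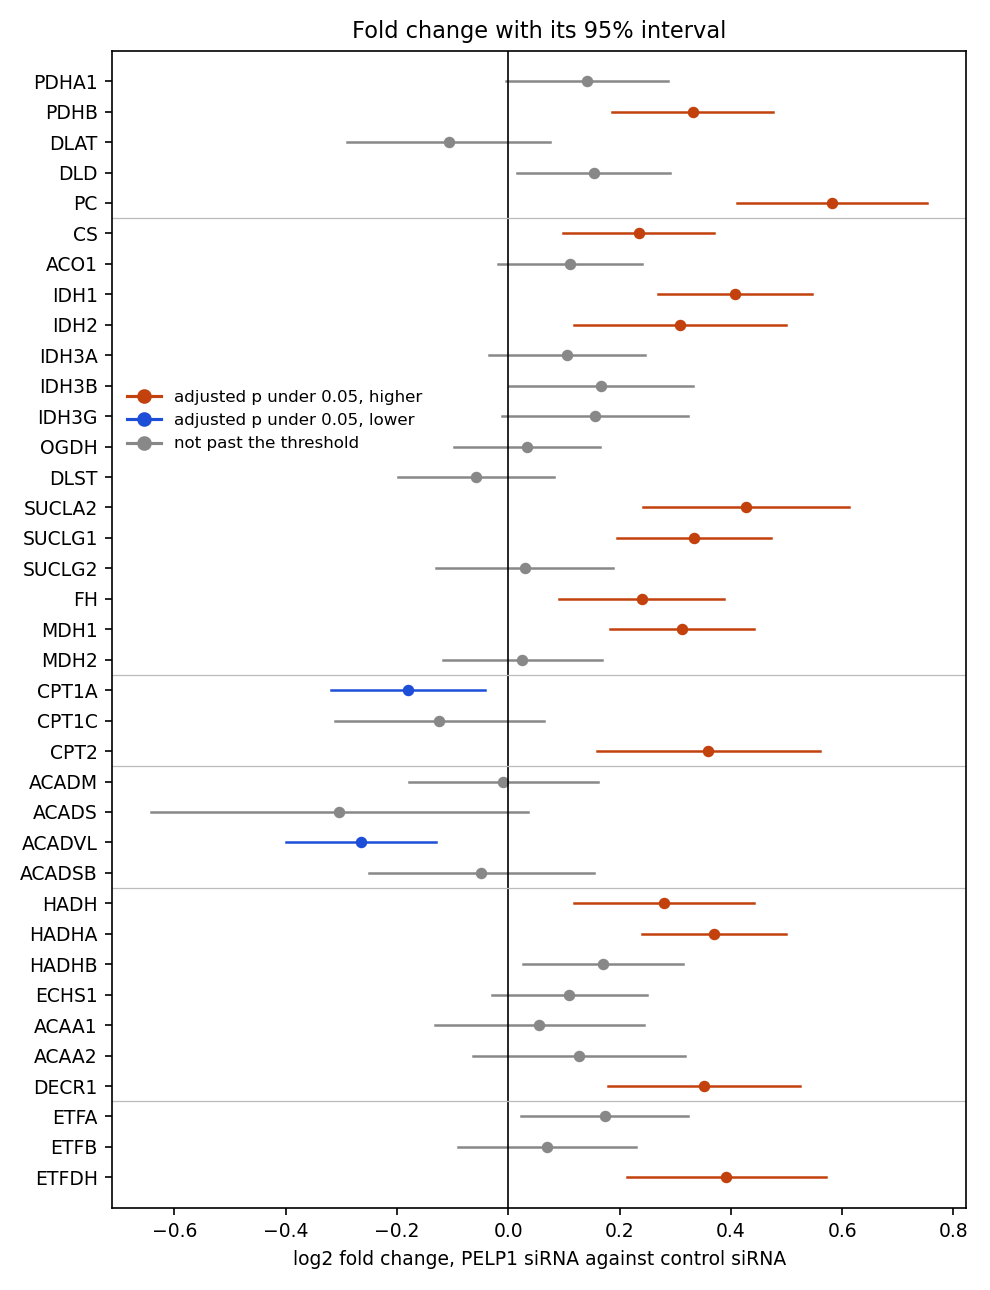
Log2 fold change of each of the 37 genes (x axis, PELP1 siRNA against control siRNA) with its 95% interval, by gene in order of role (y axis, grey lines between roles); red marks the 14 genes that rose, blue the 2 that fell and grey the 21 not past the threshold. Pyruvate carboxylase (PC) lies farthest to the right at 0.58, and the 2 blue points are CPT1A at -0.18 and ACADVL at -0.26.

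Levels between genes were compared per kilobase of the canonical transcript of each gene. On that scale the cytosolic malate dehydrogenase MDH1 was the highest of the 37 with control siRNA (236 CPM per kilobase, mean of 2 libraries), ahead of ETFB (161) and ACADVL (159). The lowest were ACADS (4.03), ACADSB (4.27) and CPT2 (7.74), the libraries of ACADS and ACADSB overlapping. With PELP1 siRNA MDH1 (293) and ETFB (169) had the highest means, followed by ACADVL (132), ECHS1 (128) and HADHA (126), whose libraries overlapped, and ACADS (3.29) had the lowest. ETFB and ACADVL did not differ beyond their spread with control siRNA.

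**Figure D2:**
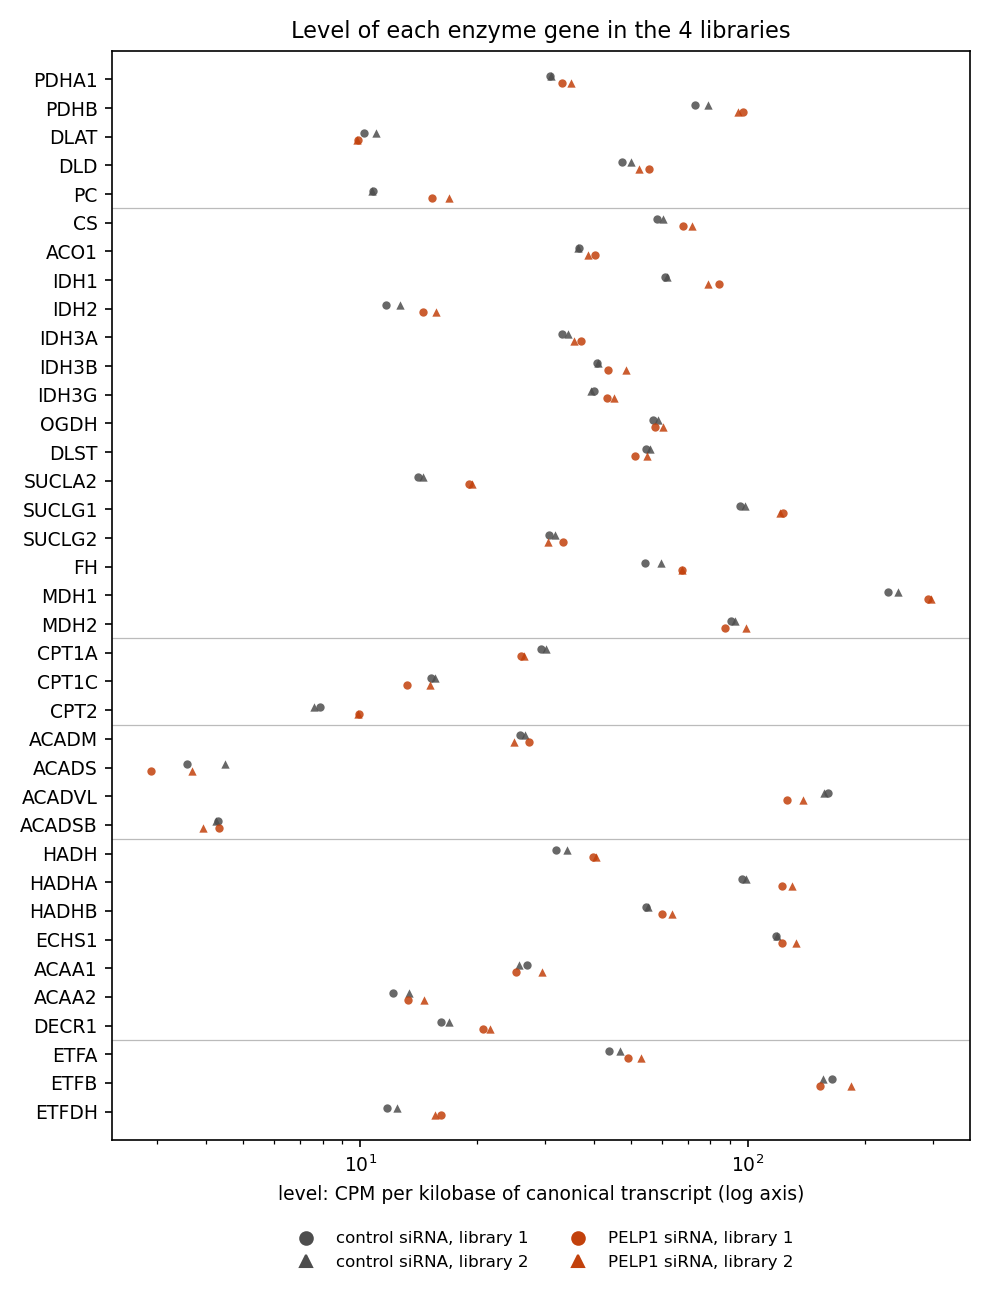
Level of each of the 37 genes in each of the 4 libraries (x axis, CPM per kilobase of canonical transcript, log axis; y axis, genes in order of role); grey marks control siRNA and red PELP1 siRNA, circles library 1 and triangles library 2. Levels run from ACADS at 4.03 to MDH1 at 236 CPM per kilobase in the control means, and differences between groups are small beside differences between genes.

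At pyruvate entry, PC and PDHB rose. PC (GRCh37 chromosome 11, 66615888 to 66725857, minus strand), pyruvate carboxylase, makes oxaloacetate from pyruvate and so refills the cycle. It stood at 46.4 and 46.2 CPM with control siRNA and at 65.9 and 72.8 CPM with PELP1 siRNA. The libraries did not overlap, and the log2 fold change was 0.58 (SE 0.083, adjusted p = 1.13e-05), the largest of the 37. It kept its call under all 13 alternative settings, with adjusted p up to 0.00165. PDHB, the beta subunit of the first enzyme of the pyruvate dehydrogenase complex, stood at 110.0 and 119 CPM against 146 and 142 CPM (log2 change 0.33, SE 0.070, adjusted p = 9.14e-04, and 0.156 without control library 1).

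Its partners in the complex among the members did not pass the threshold, while PDHX, a subunit outside the members, rose (given below). PDHA1, the alpha subunit that carries the regulatory phosphorylation sites, stood at 104 CPM in both control libraries and at 111 and 117 CPM with PELP1 siRNA (log2 change 0.14, 95% interval -0.0039 to 0.29, adjusted p = 0.140). PDHA1 shares 19.3% of its annotated exon bases with MAP3K15 on the opposite strand, and the strand setting of the counting is not given in the sources used here. DLAT, the acetyltransferase core, stood at 39.7 and 42.5 CPM against 38.3 and 38.0 CPM (-0.11, interval -0.29 to 0.075, adjusted p = 0.391). DLD, the dehydrogenase subunit that also serves the 2-oxoglutarate complex, stood at 167 and 177 CPM against 197 and 186 CPM (0.15, interval 0.016 to 0.29, adjusted p = 0.0888). The groups did not overlap for any of the 3, with DLAT lower and the other genes higher. Over all genes tested, both PELP1 siRNA libraries lay above both controls for 32% and below them for 32.3%.

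The kinases and phosphatases that switch the complex off and on were measured beside it. PDP1, the catalytic subunit of the phosphatase that reactivates pyruvate dehydrogenase, fell from 136 and 133 CPM to 98.8 and 90.7 CPM (log2 change -0.50, SE 0.071, adjusted p = 1.07e-05). Its regulatory subunit PDPR fell from 46.1 and 43.0 CPM to 35.3 and 32.9 CPM (-0.38, SE 0.090, adjusted p = 0.00243, and 0.139 without control library 1). The other catalytic subunit, PDP2, stood at 52.7 and 52.9 CPM in the group means (adjusted p = 0.973). PDHX, which tethers DLD to the core of the complex, rose from 55.6 and 56.2 CPM to 70.4 and 71.2 CPM (0.34, SE 0.078, adjusted p = 0.00199, and 0.121 and 0.0923 without control library 1 or 2).

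Of the 4 inactivating kinases, PDK1 and PDK2 rose; they were picked out after their values were seen. PDK1 stood at 43.0 and 43.2 CPM against 58.6 and 52.2 CPM (log2 change 0.36, SE 0.087, adjusted p = 0.00284). PDK2 stood at 21.1 and 19.7 CPM against 23.3 and 27.9 CPM (0.32, SE 0.11, adjusted p = 0.0243). The adjusted p of PDK1 was 0.100 and 0.0884 without control library 1 or 2, and that of PDK2 was 0.117 and 0.294 in these fits, 0.118 without PELP1 siRNA library 2 and 0.0962 with DESeq2. PDK3 and PDK4 had log2 fold changes of 0.13 and 0.47 and did not pass (adjusted p = 0.319 and 0.143). Within each library, which no scaling affects, PDK1 made up 24.0 and 24.6% of the counts of PDK1 and PDP1 together with control siRNA, and 37.2 and 36.5% with PELP1 siRNA.

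**Figure D3:**
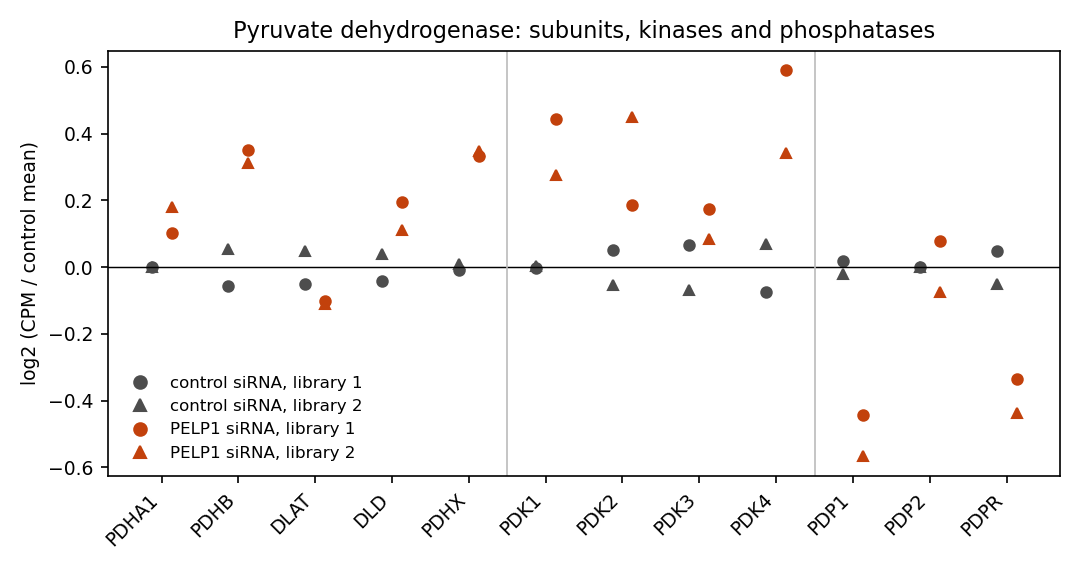
Level of each gene in each library relative to its control mean (y axis, log2 of the CPM ratio; x axis, 5 subunits, 4 kinases and 3 phosphatase genes, separated by grey lines); grey marks control siRNA and red PELP1 siRNA, circles library 1 and triangles library 2. PDP1 and PDPR lie below the control libraries in both PELP1 siRNA libraries, and the 4 kinase genes lie above them.

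In the first part of the cycle CS and IDH2 rose, and so did IDH1, whose enzyme acts outside mitochondria. CS, citrate synthase, joins acetyl-CoA to oxaloacetate. It stood at 169 and 176 CPM with control siRNA and at 198 and 209 CPM with PELP1 siRNA (log2 change 0.23, SE 0.065, adjusted p = 0.00915). IDH1 (GRCh37 chromosome 2, 209100953 to 209130798, minus strand), the isocitrate dehydrogenase of cytosol and peroxisomes that makes NADPH, stood at 142 and 144 CPM against 196 and 183 CPM. Its groups lay clear of each other, with a log2 fold change of 0.41 (SE 0.067, adjusted p = 6.38e-05), and it kept its call under all 13 alternatives. IDH2, the mitochondrial enzyme of the same reaction, stood at 31.1 and 33.7 CPM against 38.5 and 41.7 CPM (0.31, SE 0.092, adjusted p = 0.0139). The adjusted p of CS was 0.315 or 0.157, and that of IDH2 0.328 or 0.102, without control library 1 or 2.

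The NAD-linked isocitrate dehydrogenase, the form that drives the cycle forward, did not pass the threshold in any of its 3 subunits. IDH3A, the catalytic subunit, stood at 135 and 141 CPM against 152 and 145 CPM (log2 change 0.11, adjusted p = 0.258), and 38.8% of its exon bases are shared with genes on the opposite strand, chiefly ACSBG1. IDH3B and IDH3G, the other two subunits, had log2 fold changes of 0.17 and 0.16 (adjusted p = 0.124 and 0.158). ACO1, the cytosolic aconitase that also acts as an iron regulatory protein, stood at 274 and 271 CPM against 299.8 and 288 CPM (0.11, adjusted p = 0.195). In all 4 of these genes both PELP1 siRNA libraries lay above both control libraries, as they did for 32% of all genes tested.

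In the second part of the cycle SUCLA2, SUCLG1 and FH rose, and so did the cytosolic MDH1, while the mitochondrial MDH2 did not pass the threshold. Succinyl-CoA ligase pairs a shared alpha subunit, SUCLG1, with a beta subunit that makes either ATP (SUCLA2) or GTP (SUCLG2). SUCLA2 (GRCh37 chromosome 13, 48319871 to 48612104, minus strand) stood at 29.8 and 30.6 CPM with control siRNA and at 40.2 and 41.0 CPM with PELP1 siRNA (log2 change 0.43, SE 0.089, adjusted p = 8.94e-04). SUCLG1 stood at 121 and 124 CPM against 157 and 153 CPM (0.33, SE 0.067, adjusted p = 5.85e-04). Neither gene's groups overlapped. SUCLG2 stood at 72.0 and 74.9 CPM against 78.1 and 71.8 CPM, with overlapping groups (0.029, interval -0.13 to 0.19, adjusted p = 0.810). Without control library 1 the adjusted p was 0.0661 for SUCLA2 and 0.0862 for SUCLG1, and without control library 2 both stayed under the threshold (0.0356 and 0.0420).

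FH, fumarase, stood at 97.4 and 107 CPM against 121 CPM in both PELP1 siRNA libraries (log2 fold change 0.24, SE 0.072, adjusted p = 0.0145). MDH1, the cytosolic malate dehydrogenase of the malate-aspartate shuttle, stood at 297 and 316 CPM against 377 and 384 CPM (0.31, SE 0.063, adjusted p = 5.92e-04). MDH2, its counterpart in the mitochondrial matrix, stood at 196 and 201 CPM against 189 and 214 CPM, the PELP1 siRNA libraries lying on both sides of the controls (0.025, interval -0.12 to 0.17, adjusted p = 0.820). OGDH and DLST, subunits of the 2-oxoglutarate dehydrogenase complex, also overlapped between groups (0.033 and -0.058, adjusted p = 0.734 and 0.560). Without control library 1 the adjusted p was 0.456 for FH and 0.134 for MDH1, and without control library 2 it was 0.101 for FH.

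Pairs of enzymes for related reactions were set against each other within each library, where the choice of scaling has no effect. The pairs were chosen after the values were seen, each share has a 95% Wilson interval that covers counting error only, and an exact permutation test of 2 libraries against 2 cannot give a p below 0.333. SUCLA2 made up 29.3 and 29.0% of the counts of both beta subunits with control siRNA (intervals 27.3 to 31.3% and 27.2 to 30.9%). With PELP1 siRNA it made up 34.0 and 36.3% (32.1 to 35.9% and 34.3 to 38.4%). MDH1 made up 60.2 and 61.1% of the counts of MDH1 and MDH2 in the controls and 66.6 and 64.1% with PELP1 siRNA. In both pairs the intervals of the 2 groups did not overlap. The share of IDH1 beside IDH2 overlapped between groups, at 82.0 and 81.0% against 83.5 and 81.4%. Beside the catalytic subunit IDH3A the share of IDH1 went from 51.2 and 50.5% to 56.3 and 55.8%. Intervals overlapped between groups for PDHB beside PDHA1 (51.5 and 53.4% against 56.8 and 54.8%). They also overlapped for ACADVL beside ACADM (85.7 and 85.1% against 81.7 and 84.3%) and ETFDH beside ETFB (20.3 and 22.0% against 27.3 and 23.2%). Those of PC beside PDHA1 and SUCLG1 beside SUCLG2 did not.

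**Figure D4:**
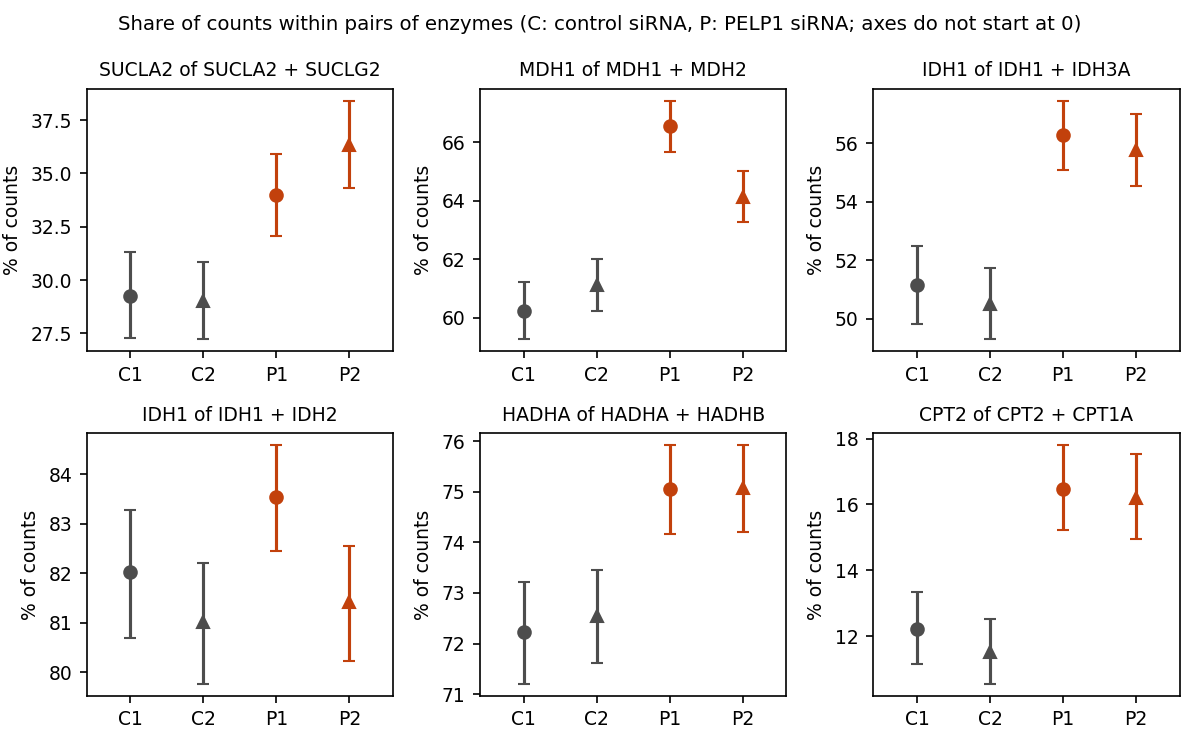
Share of the first gene in the summed counts of 2 genes (y axes, %, not starting at 0) in control libraries 1 and 2 (C1, C2, grey) and PELP1 siRNA libraries 1 and 2 (P1, P2, red), with 95% Wilson intervals for counting error. The share of SUCLA2 is 29.3 and 29.0% in the controls and 34.0 and 36.3% with PELP1 siRNA, while the shares of IDH1 beside IDH2 overlap.

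The carnitine shuttle moved in opposite directions at its 2 mitochondrial membranes. CPT1A (GRCh37 chromosome 11, 68522088 to 68611878, minus strand), the outer-membrane enzyme that loads fatty acids onto carnitine and sets the pace of oxidation, stood at 153 and 158 CPM with control siRNA and at 136 and 138 CPM with PELP1 siRNA. The groups did not overlap, but the fall was small (log2 fold change -0.18, SE 0.066, adjusted p = 0.0460) and close to the threshold. Its adjusted p was 0.0564 with upper quartile scaling, 0.131 with total counts alone, 0.0809 with DESeq2, 0.0774 with a replicate block, and 0.328 and 0.467 without control library 1 or 2. CPT2, the inner-membrane enzyme that returns them to CoA, rose from 21.3 and 20.5 CPM to 26.9 and 26.7 CPM (0.36, SE 0.097, adjusted p = 0.00717, and 0.104 and 0.171 without control library 1 or 2). CPT2 made up 12.2 and 11.5% of the counts of both genes in the controls and 16.5 and 16.2% with PELP1 siRNA. CPT1C, the form best known from neurons, was at -0.12 on the log2 scale (adjusted p = 0.330).

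Of the 4 acyl-CoA dehydrogenases among the members, which open each round of oxidation, 1 fell, 0 rose and 3 did not pass the threshold, with all 4 estimates below 0. Further genes of the family, tested among the partners of oxidation, did not pass either: ACAD8 was at 0.16, ACAD9 at 0.093, ACAD11 at 0.058 and ACAD10 at -9.2e-05 on the log2 scale. ACADVL (GRCh37 chromosome 17, 7120444 to 7128585, plus strand), the enzyme for very long chains, fell from 350 and 344 CPM to 275 and 303 CPM (log2 change -0.26, SE 0.065, adjusted p = 0.00349). Its adjusted p was 0.159 and 0.0993 without control library 1 or 2. ACADM, for medium chains, stood at 58.3 and 60.3 CPM against 61.6 and 56.3 CPM (-0.0086, interval -0.18 to 0.16, adjusted p = 0.949), and its sign changed with the scaling. ACADS, for short chains, was the least abundant member at 129 and 187 counts against 106 and 130 counts, and its interval was wide (-0.30, interval -0.64 to 0.035, adjusted p = 0.174). ACADSB, which acts on short branched chains, was at -0.049 on the log2 scale (adjusted p = 0.748).

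Among the enzymes that complete the round, HADHA, HADH and DECR1 rose. HADHA (GRCh37 chromosome 2, 26413504 to 26467540, minus strand), the alpha subunit of the mitochondrial trifunctional protein, stood at 284 and 292 CPM with control siRNA and at 361 and 382 CPM with PELP1 siRNA. The libraries lay far apart, with a log2 fold change of 0.37 (SE 0.063, adjusted p = 9.96e-05), and the call held under all 13 alternatives. HADHB, the beta subunit of the same complex, stood at 109 and 110.3 CPM against 120.0 and 127 CPM, also without overlap (0.17, interval 0.026 to 0.31, adjusted p = 0.0719). The 2 genes lie head to head, with 306 bases between their canonical starts (26467500 and 26467807). The share of HADHA in the counts of both was 72.2 and 72.5% in the controls and 75.1% in both PELP1 siRNA libraries, with Wilson bounds within 71.2 to 73.5% and 74.2 to 75.9%.

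HADH, the hydroxyacyl-CoA dehydrogenase for shorter chains, stood at 57.7 and 61.6 CPM against 71.8 and 73.1 CPM (log2 change 0.28, SE 0.078, adjusted p = 0.00930). DECR1, the reductase needed for unsaturated fatty acids, stood at 44.6 and 46.8 CPM against 57.1 and 59.6 CPM (0.35, SE 0.083, adjusted p = 0.00258). Without control library 1 or 2 the adjusted p was 0.329 or 0.116 for HADH and 0.159 or 0.0650 for DECR1. The hydratase ECHS1 and the thiolases ACAA1 (peroxisomal) and ACAA2 (mitochondrial) had log2 fold changes of 0.11, 0.055 and 0.13 and adjusted p from 0.238 to 0.688. The libraries of the thiolase genes overlapped between groups, and 19.7% of the exon bases of ACAA1 are shared with DLEC1 on the opposite strand.

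The electron transfer flavoprotein takes electrons from the acyl-CoA dehydrogenases and hands them to the respiratory chain through ETFDH. ETFDH stood at 36.6 and 38.6 CPM with control siRNA and at 50.3 and 48.4 CPM with PELP1 siRNA (log2 change 0.39, SE 0.086, adjusted p = 0.00146, and 0.115 without control library 1). The flavoprotein subunits did not pass the threshold. ETFA stood at 100 and 107 CPM against 112 and 121 CPM (0.17, interval 0.024 to 0.32, adjusted p = 0.0778). ETFB stood at 144 and 136 CPM against 134 and 160 CPM, overlapping between groups (0.070, interval -0.090 to 0.23, adjusted p = 0.534).

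Summed over their members, both branches were described library by library. The 20 genes of pyruvate entry and the cycle summed to 2540 and 2624 CPM with control siRNA and to 2915 and 2950 CPM with PELP1 siRNA, a ratio of group means of 1.14. The 17 genes of fatty acid oxidation summed to 1666 and 1687 CPM against 1713 and 1831 CPM, a ratio of 1.06. Neither sum overlapped between groups, but HADHA alone (288 and 372 CPM in the group means) matched most of the net difference in oxidation. That net holds rises and falls that partly cancel, with 11 of the 17 estimates above 0 and 6 below. The first sum was 1.53 and 1.56 times the second in the controls and 1.70 and 1.61 times with PELP1 siRNA. Within oxidation the acyl-CoA dehydrogenases summed to 441 and 437 CPM against 367 and 389 CPM, a difference in group means of which ACADVL alone held nearly all (347 and 289 CPM). The genes of the later steps summed to 727 and 745 CPM against 848 and 904 CPM. The branches were set side by side without a test, since genes of a list are not replicates.

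The starts of the genes were searched for short motifs, chosen after the values were seen, in RefSeq windows of 250 bases before to 50 after each start (GRCh38.p14). Of the 37 genes 33 had a window. The CCAAT box (letters CCAAT on either strand), bound by the factor NF-Y, stood in the windows of 15 of the 33 members (45.5%), against 39.7% of all 27305 genes of the table, and in 39.5% of the 43 windows of members, against 34.6% of all windows. These shares lie near each other. Split by call, it stood in the windows of 9 of the 12 genes that rose and had a window (75.0%), of 6 of the 19 not past the threshold (31.6%) and of 0 of the 2 that fell. The split was made after the values were seen and has no test. The estrogen-related receptor motif (AAGGTCA) was found in 1 of the 33 (SUCLA2) against 4.80% of all genes. The NRF1 core (GCATGCGC) was found in 2 (CPT1C and DLD) against 3.68%, and the ETS core (CCGGAAG) in 6 against 12.2%. All were searched on both strands, overlaps between motifs were allowed, and a match is a description of the sequence only.

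Stretches around the CCAAT box of 6 genes that rose are given as examples, with a single site for each. Further sites of these genes lie 43 (PC) to 173 (CS) bases before a start. The box lies farther off in SUCLA2 (204 bases) and MDH1 (214 bases). SUCLG1, counted above, has no site that lies before the start together with 8 bases on each side. Each is given 5′ to 3′ on the strand of its gene, with the box in capitals (ATTGG where it lies on the other strand). Coordinates are GRCh38.p14, from the RefSeq windows.
PDHB, chr3:58433884-58433904, minus strand, 60 bases before the start: gccttgccATTGGcccgcgcc
PC, chr11:66958436-66958456, minus strand, 61 bases before a start: tgtctgggCCAATaggaagtc
CS, chr12:56300434-56300454, minus strand, 112 bases before the start: ataccggaCCAATggccgggc
IDH1, chr2:208255166-208255186, minus strand, 103 bases before a start: gtgtggcgATTGGaggcgtgt
FH, chr1:241519812-241519832, minus strand, 65 bases before the start: ggctgttgATTGGataagagc
HADH, chr4:107989745-107989765, plus strand, 132 bases before a start: agccagggCCAATgggcagag
Among members not past the threshold, PDHA1 (107 bases before its start) and ETFA (71 and 88 bases) also carry the box. No binding was measured in these libraries.

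Words of 7 bases that are frequent in the 3′ UTRs of fallen genes and also occur in the PELP1 mRNA were looked for in the members. GCCTTGA and CTCAGTT stood out most among such words; they were chosen on these same fold changes, so they are no independent evidence. Of 540 genes lower by 1.5-fold or more, 45.6% had either word in the canonical 3′ UTR, beside 22.9% of 7825 genes not past the threshold and 20.9% of 277 genes higher by 1.5-fold or more. Among the members, 6 of 37 carry one (16.2%): 0 of the 14 that rose, 1 of the 2 that fell (CPT1A) and 5 of the 21 others (DLD, ACO1, DLST, ACADS and ACADSB). The shares are not adjusted for UTR length, and the part of these words in any member's change was not tested. The site of CPT1A and that of PDPR, the fallen phosphatase subunit, are given 5′ to 3′ with the word in capitals and GRCh37 coordinates of the word. ACADVL and PDP1, which fell, carry neither word, and ACSL3 and OXCT1, which rose, carry CTCAGTT.
CPT1A, chr11:68524996-68525002, minus strand: taaaaaaaCTCAGTTttccttcc
PDPR, chr16:70196087-70196093, plus strand: tctagcagCTCAGTTaacacttt

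The other genes of these pathways were taken from lists of 83 genes, of which 75 were tested. Of these 75, 23 rose (30.7%), 6 fell (8%) and 46 did not pass the threshold, with a median log2 fold change of 0.10. Over all genes tested 12.9% rose and 15% fell. Among 17 tested partners of pyruvate entry and the cycle 6 rose (35.3%) and 2 fell (11.8%, PDP1 and PDPR). The subunits of succinate dehydrogenase did not all rise. SDHC, with overlapping libraries, was at 0.044 on the log2 scale (adjusted p = 0.743) and SDHD at 0.19 (adjusted p = 0.143). SDHC and SDHD were named after their values were seen. SDHB, the iron-sulfur subunit of succinate dehydrogenase, rose from 151 and 145 CPM to 178 and 182 CPM (0.28, adjusted p = 0.00229, and 0.0903 and 0.174 without control library 1 or 2). The SDHA subunit of the same enzyme, named after its values were seen, also rose (0.28, adjusted p = 0.00682, and 0.156 and 0.135 without control library 1 or 2).

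Among 13 tested genes that feed or drain the cycle 3 rose (23.1%) and 1 fell (7.69%), beside 12.9% and 15% of all genes. GOT2 and GOT1, the aspartate aminotransferases of mitochondria and cytosol that work with the malate dehydrogenases in the shuttle, rose together. GOT2 stood at 176 and 182 CPM against 224 and 222 CPM (log2 change 0.32, adjusted p = 5.97e-04) and GOT1 at 97.3 and 104 CPM against 121 and 132 CPM (0.32, adjusted p = 0.00166). Their adjusted p was 0.102 and 0.166 without control library 1. The citrate carrier SLC25A1, named after its values were seen, was the other that rose (0.35, adjusted p = 0.00479, and 0.0978 and 0.0920 without control library 1 or 2). PCK2, the mitochondrial enzyme that takes oxaloacetate to phosphoenolpyruvate, fell from 7.79 and 7.86 CPM to 5.28 and 5.27 CPM (-0.57, adjusted p = 0.00642, 0.0676 with DESeq2, and 0.0663 and 0.0764 without control library 1 or 2).

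Among 16 tested partners of fatty acid activation and mitochondrial oxidation 5 rose (31.2%) and 0 fell, beside 12.9% and 15% of all genes. ACSL3, an acyl-CoA synthetase of the endoplasmic reticulum and lipid droplets, stood at 131 CPM in both control libraries and at 192 and 171 CPM with PELP1 siRNA (log2 change 0.46, adjusted p = 2.38e-05). ECI2, an isomerase for unsaturated chains, stood at 57.7 and 55.4 CPM against 72.4 and 78.8 CPM (0.42, adjusted p = 3.42e-04). Of 14 genes of peroxisomal oxidation 4 rose (28.6%) and 2 fell (14.3%), the falls being near the share of all genes. PECR, a trans-enoyl-CoA reductase, rose from 10.8 and 11.2 CPM to 16.2 and 15.6 CPM (0.54, adjusted p = 0.00116). The transporter ABCD2 rose from 6 and 5 counts to 26 and 16 counts (2.02, SE 0.46, adjusted p = 0.00183, with no adjusted p from DESeq2). The carnitine acetyltransferase CRAT fell by 0.23 (adjusted p = 0.0250, 0.0554 with DESeq2, 0.0749 with total counts alone, and 0.327 and 0.249 without control library 1 or 2).

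Of 4 tested ketone body enzymes 3 rose, among them BDH2 (log2 fold change 0.42, adjusted p = 0.00380) and OXCT1 (0.26, adjusted p = 0.00564), which activates acetoacetate. Without control library 1 or 2 the adjusted p was 0.117 or 0.0504 for BDH2 and 0.160 or 0.193 for OXCT1. Of 11 transcriptional regulators of oxidation 2 rose (18.2%) and 1 fell (9.09%), with a median of -0.12. Over all genes tested the shares were 12.9% and 15%. PPARGC1A, the coactivator PGC-1alpha of mitochondrial genes, rose from 13.8 and 11.6 CPM to 20.8 and 19.1 CPM (0.66, SE 0.12, adjusted p = 1.46e-04). PPARG, a nuclear receptor of fat cells, rose from 7.22 and 7.19 CPM to 10.7 and 9.80 CPM (0.51, adjusted p = 0.00692, 0.0613 with DESeq2, and 0.0814 and 0.0883 without control library 1 or 2). PPRC1, a coactivator related to PGC-1alpha, fell from 125 and 122 CPM to 103 and 100.4 CPM (-0.28, adjusted p = 0.00399, and 0.195 and 0.105 without control library 1 or 2).

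**Figure D5:**
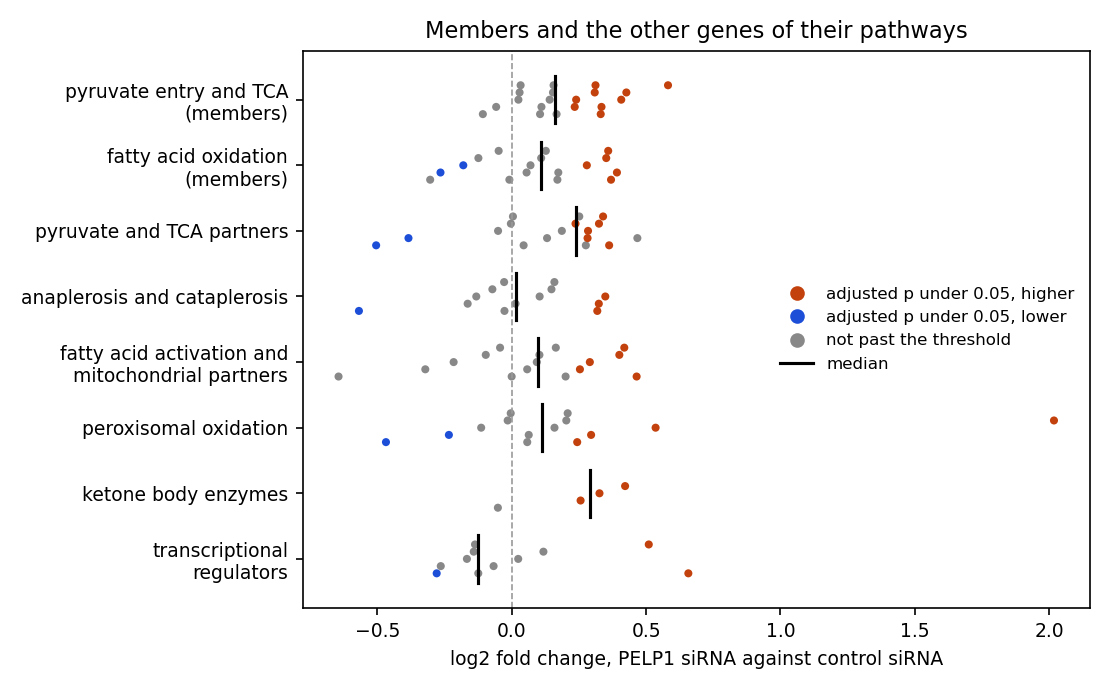
Log2 fold change (x axis, PELP1 siRNA against control siRNA) of each tested gene, as points, in the 2 groups of members and in 6 lists of other pathway genes (y axis); red marks genes that rose, blue genes that fell, grey genes not past the threshold, and the black bar is the median of the list. The point at 2.02 is ABCD2, and the median of the regulators, at -0.12, is the 1 median below 0.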

How the data were processed

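Per the labels' protocols, total RNA of transfected U87 cells was made into barcoded TruSeq libraries and read as single ends. CASAVA 1.8.2, TopHat2 2.0.8b, HTSeq and build hg19 (GRCh37) are named in the submitters' processing notes. The deposited tables hold raw counts of reads for each symbol. Their summary lines tally ambiguous reads and reads without a unique alignment apart from the genes, so such reads were given to no gene. This could lower the counts of overlapping genes and close copies. Not given in the sources used here are the strand setting, overlap setting and annotation of HTSeq, which decide what reads were held ambiguous.

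The 5 summary lines that end each table (36.0 to 37.6% of all lines' counts) were left out. Of 23228 symbols, 13234 passed the filterByExpr filter of edgeR (counts of at least 10, total of at least 15), all 37 members among them. After TMM scaling, edgeR 4.0.16 under R 4.3.3 gave a quasi-likelihood test (robust) of siRNA group alone, and p-values were adjusted by Benjamini-Hochberg over all genes tested. Every adjusted p is from this fit unless another tool (DESeq2 1.42.0, limma-voom 3.58.1) is named, and intervals of fold changes are not adjusted. The biological coefficient of variation was 5.23%. Coordinates, transcript lengths and UTRs are from GENCODE v44lift37 and promoter windows from RefSeq. Named genes are all members, PELP1 and, of each pathway list, up to 2 called genes in each direction with the smallest adjusted p; others are said to be named after their values were seen. Members and lists were chosen with earlier results of these data known. Some genes that this rule names are not reported here.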

Additional observations from a re-analysis of the deposited data

How the results depend on the processing

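The 16 called members kept their direction under all 13 alternatives, and 15 or 16 of them kept their call under each of the 9 that used all 4 libraries; CPT1A was the 1 lost there. With total counts alone 5 further members passed (PDHA1, DLD, IDH3B, HADHB and ETFA), and the median of pyruvate entry and the cycle was 0.209 in place of 0.161, while that of all genes moved by about as much, from 0.00088 to 0.049. Over the fits without 1 library each, the genes called over all genes ran from 1466 to 5528 (3692 with all libraries). The called members ran from 2 to 14 for pyruvate entry and the cycle (9 with all libraries) and from 1 to 12 for oxidation (7), fewest without control library 1 and most without PELP1 siRNA library 1. The medians ran from 0.165 to 0.217 and from 0.0596 to 0.195. Signs changed only for members not past the threshold in the main comparison. ACADM was at 0.00058 with upper quartile scaling and 0.039 with total counts, a change of the size of that shift, and ran from -0.073 to 0.060 over the fits without 1 library. Over the same fits SUCLG2 ran from -0.030 to 0.093, MDH2 from -0.063 to 0.115, ACADSB from -0.114 to 0.022, ACAA1 from -0.052 to 0.166 and ETFB from -0.059 to 0.198. The causes of these changes were not tested. DESeq2's Wald test called 2552 genes, 9 members of pyruvate entry and the cycle and 6 of oxidation.

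The groups share replicate numbers, but the labels do not say that a number marks a shared batch, and deviations of same-numbered libraries had a correlation of -0.041 over 13234 genes. With the number as a replicate block 3581 genes were called, with 9 members of pyruvate entry and the cycle and 6 of oxidation. Counting limits the 1 scarce member, ACADS, more than the others.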
